A study of Mus musculus with 6 samples.

Results

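Lymphoid cells without *Cd3* were examined in the library labelled as *Gli1*+ cells of uninjured Achilles tendon. A cell was a member if it held at least 1000 unique molecular identifiers (UMIs), at least 200 genes and at most 5% mitochondrial UMIs. It also had to hold at least 1 UMI of *Ptprc*, which encodes the leukocyte antigen CD45, and none of *Cd3d*, *Cd3e* and *Cd3g*, which encode chains of the T cell receptor complex. The summed UMIs of the myeloid genes *H2-Aa*, *Lyz2* and *Csf1r* had to stay under 5, and those of *Il7r*, *Gata3*, *Ncr1* and *Klrb1c* had to reach 2. These limits were met by 285 of the 7516 cells that passed the depth and mitochondrial limits in this library (3.79%, exact binomial 95% interval 3.37 to 4.25), out of 84194 cell barcodes in the series. Members were thus selected on the measured counts of these 11 genes, whose levels describe the selection and carry no further weight.

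The mice carried *Gli1*-CreERT2, a recombinase that tamoxifen activates in cells using the *Gli1* gene, and the Ai9 reporter, which then marks such cells and their progeny. Tamoxifen was given to mice of all groups, of both sexes, before tendons were taken without injury, at 7 dpi (days post injury) or at 21 dpi after tenotomy, the surgical cut of the tendon. Sorting gave a *Gli1*+ and a *Gli1*- fraction at each stage, and every combination of stage and fraction gave 1 pooled library, 6 in all, with no map from cells to mice and no age in the labels. The samples are labelled as tendon cells. No test between conditions was therefore made, and every interval below is a 95% interval that covers counting error only.

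Innate lymphoid cells are lymphocytes that lack a rearranged antigen receptor. The type 2 class depends on the transcription factors GATA3 and ROR-alpha, responds to the tissue alarm signal interleukin 33 through its receptor, encoded by *Il1rl1*, and is known for interleukins 5 and 13 and for the growth factor amphiregulin. Natural killer (NK) cells carry activating receptors that signal through adaptor proteins such as those of *Fcer1g* and *Tyrobp*, and are known for cytotoxic granules, interferon gamma and chemokines. Both classes depend on cytokines for their upkeep, and many type 2 cells reside in tissues.

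*Ptprc* was found in 4298 of the 7516 passing cells of the uninjured *Gli1*+ library (57.2%). In the 5 other libraries between 3 and 37 cells held it, 0.0281 to 0.305% of 10064 to 12113 passing cells, at 0.0270 to 2.40 *Ptprc* CPM (counts per 1000000 UMIs) against 727 CPM. The member limits gave 1 cell in the uninjured *Gli1*- library and 0 in the other 4, where a count of 0, with 3 counts as the limit used throughout, allows a share of up to 0.0249 to 0.0298%. *Gli1*, named here after its values were seen, gave 9 UMIs in 7 of the 285 members, 3.38 CPM (1.55 to 6.42), against 15.2 CPM in *Ptprc*-negative cells with *Pdgfra*. The majority of cells with *Ptprc* goes against the label of tendon cells sorted for the *Gli1* reporter, and the identity of the sort and of the library was not tested. The 5 other libraries gave no group of such cells to compare with, and stage, sort and library cannot be told apart. Of the barcode sequences in this library, 27 to 44 also occurred in each other library, and 1 of them belonged to a member.

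*Gata3* and the NK receptor genes *Ncr1* and *Klrb1c* divided the members into 4 subsets. *Gata3* without an NK receptor UMI was held by 218 cells, called *Gata3*-only below (76.5%, 71.1 to 81.3). An NK receptor UMI without *Gata3* was held by 24 cells, called NK-only (8.42%, 5.47 to 12.3). Both were held by 23 cells, called *Gata3* plus NK (8.07%), and neither by 20 cells (7.02%), which by the selection held *Il7r* alone. *Il7r*, the receptor for interleukin 7, was found in 196 of 218 *Gata3*-only cells and in 11 of 24 NK-only cells. The most similar cells of the library met the same limits but held at least 1 *Cd3* UMI, and these 2469 cells, with a median depth of 8366 UMIs, are called *Cd3*+ below. Median depth was 7572.5 UMIs in *Gata3*-only cells, 7028.5 in NK-only cells, 8056 in *Gata3* plus NK cells and 6232 in cells with neither.

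Cells near the limits were counted as a description. Among cells that passed all other limits, 212 held 0 UMIs of the 4 lymphoid genes and 19 held 1, while 13 held 2, 17 held 3 and 255 held 4 or more. Few cells thus lay next to this limit. The share of cells with *Il1rl1* was 7.55% at 0 lymphoid UMIs, 21.1% at 1, 23.1% at 2, 41.2% at 3 and 61.6% at 4 or more. At the myeloid limit, 5 cells held 4 UMIs and were members, and 3 cells held 5 and were not.

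**Figure D1:**
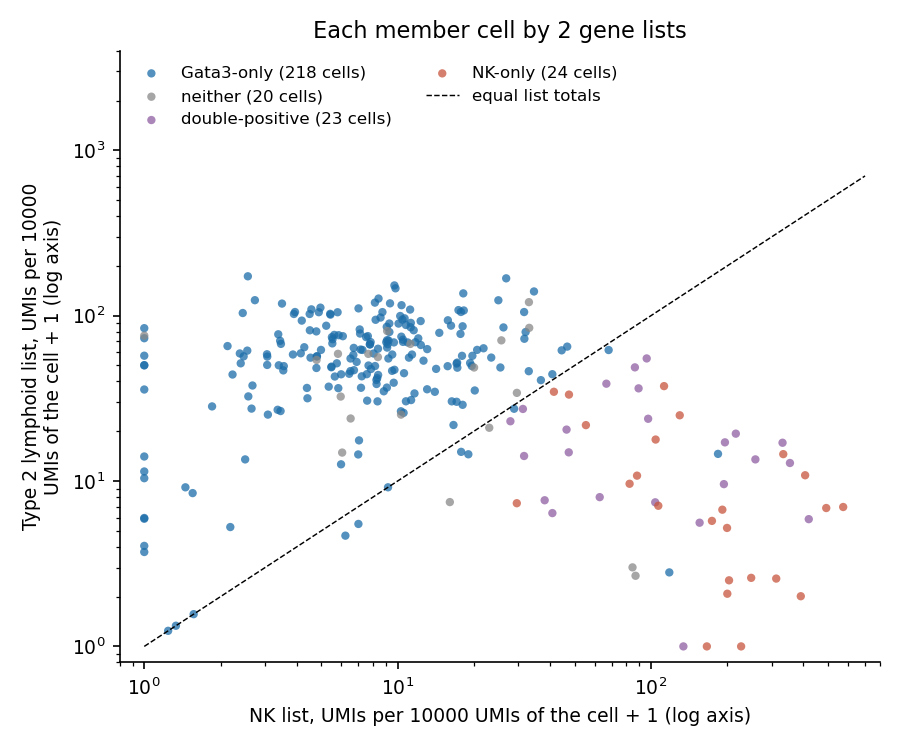
Each point is 1 of the 285 members, placed by its UMIs of the NK list (horizontal) and of the type 2 lymphoid list (vertical), per 10000 UMIs of the cell with 1 added, on log axes, and colored by subset. Of 218 *Gata3*-only cells 206 lie above the dashed line of equal totals, while all 24 NK-only and all 23 *Gata3* plus NK (double-positive) cells lie below it.

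The subsets differed in the gene lists of their namesakes, though the type 2 list was not particular to *Gata3*-only cells. A list of 18 genes of type 2 lymphoid cells, with none of the selection genes, had a median of 56.6 UMIs per 10000 in *Gata3*-only cells (lowest 0.242, highest 172) and of 6.03 in NK-only cells (0 to 36.5). A list of 33 NK genes had a median of 6.84 in *Gata3*-only cells (0 to 183) and of 182 in NK-only cells (28.5 to 573). The subsets overlapped on both lists in their extreme cells, but their middle 50% did not, at 37.8 to 78.4 against 1.59 to 14.4 for the type 2 list and 3.50 to 10.5 against 99.3 to 264 for the NK list. Summed over cells, the type 2 list was at 5111 CPM in *Gata3*-only and 1000.3 CPM in NK-only cells, a log2 ratio of 2.35 (2.15 to 2.57). *Rora* alone gave 2925 of these CPM in *Gata3*-only cells, and 144 of the 193 UMIs of the list in NK-only cells. The NK list was at 923 against 19214 CPM, a log2 ratio of -4.38 (-4.46 to -4.30). *Cd3*+ cells with 2 or more UMIs of an interleukin-17 list, described below, had a type 2 median of 33.8 (middle 50% 20.6 to 48.3). Their NK median was 10.5. In *Ptprc*-negative mesenchymal cells the type 2 median was 6.97. A *Gata3*-only cell with 942 epidermal UMIs held 7.46 UMIs of the type 2 list per 10000 and 0.552 of the NK list. The NK-only subset was called NK-like and the *Gata3*-only subset type 2-like from these lists.

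On these lists, cells with both markers lay nearer the NK-only cells than the *Gata3*-only cells. All 23 held more UMIs of the NK list than of the type 2 list, with medians of 95.2 and 13.9 per 10000. Of the 20 cells with neither marker 16 held more UMIs of the type 2 list and 4 more of the NK list. Their type 2 list median was 50.3 per 10000, and *Il1rl1* was at 394 CPM (301 to 506) in them. Of NK genes, *Ccl5* reached 142 UMIs in 1 of the 20 cells and *Fcer1g* was found in 4. *Klrd1*, *Prf1*, *Ccl4* and *Ifng* had no UMI in them. The myeloid list was at 1175 CPM in these 20 cells, against 168 CPM in *Gata3*-only cells. *Fcer1g*, the adaptor of activating receptors, was found in all 23 cells with both markers at 542 CPM and in all 24 NK-only cells at 736 CPM. *Xcl1*, a chemokine for dendritic cells, was at 649.8 CPM (546 to 767) against 653 CPM (544 to 778), a log2 ratio of -0.01 (-0.37 to 0.35). The NK list as a whole was lower in the cells with both markers, at 12650 against 19214 CPM, and so were several NK products. The log2 ratio to NK-only cells was -0.81 (-0.93 to -0.69) for the chemokine gene *Ccl5*, -0.82 (-1.20 to -0.44) for *Ifng*, which encodes interferon gamma, and -2.01 (-3.12 to -1.02) for *Fasl*, which encodes the Fas ligand. *Rora* and *Il2ra* were higher in the cells with both markers, with log2 ratios of 0.74 (0.44 to 1.04) and 0.98 (0.36 to 1.62). *Il1rl1* was found in 1 of the 23 cells and *Areg* in 2, and neither in any NK-only cell. *Il23r*, the interleukin 23 receptor, was higher in the *Gata3* plus NK cells than in NK-only cells, at 173 against 5.18 CPM, a log2 ratio of 5.06 (2.49 to 10.4), but was found in 6 of the 23 cells, of which 1 gave 45.9% of its UMIs. *Lta*, which encodes lymphotoxin, was at 182 against 88.1 CPM, a log2 ratio of 1.05 (0.19 to 1.96), but it was found in 7 of 23 and 3 of 24 cells, and 1 cell gave 48.7% and 82.4% of its UMIs.

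Over all genes, 5965 had at least 50 UMIs in the *Gata3*-only and NK-only cells together. A gene was called higher or lower if its ratio passed 2-fold with an interval that left out 1. Of these genes 623 were higher in *Gata3*-only cells (10.4%) and 479 lower (8.03%). With TMM scaling, which centers the trimmed mean of the ratios and moved all log2 ratios by 0.14, the split was 767 higher and 373 lower, and without cells that also held markers of other lineages, described below, it was 369 and 352. The balance turned without the minimum of 50 UMIs, at 682 higher and 891 lower, and among cells without a T cell receptor constant UMI, of which 3 were NK-only, at 104 and 128. Of the 15 type 2 genes tested 14 were higher and none lower, with *Crlf2* the exception. Their median log2 ratio was 4.26 against 0.03 over all genes, but 10 of the 15 were at 0 UMIs in NK-only cells, and with those at the floor of 3 counts it was 1.97. Of 33 NK genes 15 reached the minimum for a test, and all 15 were lower (median -4.75). *Gzma* (0 and 96 UMIs), *Xcl1* (8 and 126) and *Tyrobp* (10 and 138) reached it through the NK-only cells. The 10 type 2 genes at 0 UMIs in NK-only cells reached it through the *Gata3*-only cells. The direction of such genes was thus largely set by the minimum, here and in the list counts between the subsets below. Since genes were chosen for these lists as marks of the same classes as the selection genes, the counts describe the subsets.

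The receptor for interleukin 33 set the *Gata3*-only cells apart from the NK-only cells. *Il1rl1* was at 403 CPM (376 to 431), found in 156 of 218 cells (71.6%), with a median of 4 UMIs in cells that held it and at most 30 in 1 cell. No NK-only cell held it, so its level was at least 25.9-fold higher, with 3 counts over the group as the floor. After each cell was thinned to 2000 UMIs, *Il1rl1* was found in 47.5% of *Gata3*-only cells (40.7 to 54.3), in 0.420% of *Ptprc*-negative endothelial cells (median 5645 UMIs before thinning) and in 0.228% of *Ptprc*-negative mesenchymal cells (median 9213.5). Its share thus stood far above that in these *Ptprc*-negative cells. Of 17 cytokine receptor genes 13 were tested between the subsets, and 3 were higher in *Gata3*-only and 6 in NK-only cells, beside 10.4% and 8.03% of all genes. *Il2ra*, a chain of the interleukin 2 receptor, was at 491 CPM in *Gata3*-only and 171 CPM in NK-only cells, and *Il9r*, the interleukin 9 receptor, at 49.5 CPM against 0 UMIs.

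Some other receptors of the type 2 list were low or absent. *Il17rb*, the receptor for interleukin 25, was at 22.8 CPM and found in 15.6% of *Gata3*-only cells. *Crlf2*, a chain of the receptor for the alarm cytokine TSLP, was at 32.8 CPM, little above the 26.6 and 21.1 CPM of endothelial and mesenchymal cells. *Nmur1*, the receptor for the neuropeptide neuromedin U, gave 3.81 CPM, and *Ptgdr2*, the prostaglandin D2 receptor, was at 0 UMIs in all 285 members. With 3 counts as the limit, a count of 0 allows up to 1.13 CPM over the members. *Klrg1*, an inhibitory receptor, was at 93.8 CPM and found in 42.2% of cells, and *Ccr8*, a chemokine receptor, at 50.4 CPM and in 26.6%.

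Cells with and without *Il1rl1* differed in other transcripts within the *Gata3*-only subset. *Klrg1* was found in 51.3% of the 156 cells with *Il1rl1* and in 19.4% of the 62 others. *Kit*, the stem cell factor receptor, was found in 53.2% against 24.2%, and *Arg1*, the arginine-degrading enzyme arginase 1, in 31.4% against 11.3%. *Il18r1*, a chain of the interleukin 18 receptor, went the other way, at 46.8% against 58.1%, and 26 cells held neither *Il1rl1* nor *Il18r1*. The cells without *Il1rl1* were the deeper ones, with a median of 8219 against 7449.5 UMIs. Without the 31 cells of mixed lineage described below, *Il1rl1* was found in 145 of 187 *Gata3*-only cells, so mixed cells were the more frequent among those without it, and their part in these shares was not tested. These shares are descriptions over cells of 1 library.

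The secreted products of the type 2 class were found in *Gata3*-only cells and in no NK-only cell. *Areg*, which encodes amphiregulin, was at 400.3 CPM (374 to 428) and found in 123 of 218 cells. The cytokine *Il13* was at 81.9 CPM (70.1 to 95.05) in 44 cells, *Il4* at 61.4 CPM (51.3 to 72.9) in 37 cells and *Il5* at 53.8 CPM (44.3 to 64.7) in 35 cells. A single cell gave 49.6% of the *Il4* UMIs and 29.2% of the *Il5* UMIs also came from 1 cell, while no cell gave more than 13.4% for *Il13*. None of these 4 genes had a UMI in NK-only cells, where a count of 0 allows up to 15.5 CPM.

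The cytokines were shared out over cells. Of the 218 *Gata3*-only cells 137 held none of *Il13*, *Il5* and *Il4*, 50 held 1 of them, 27 held 2 and 4 held all 3. *Il4* was found in 38.6% of the 44 cells with *Il13* and in 11.5% of the others, which had median depths of 8409.5 and 7463.5 UMIs. The interleukin 33 receptor gene *Il1rl1* was found in 70.5% of cells with *Il13* and in 71.8% of those without it. *Csf2*, which encodes the growth factor GM-CSF, was at 39.5 CPM in 17.4% of cells, and *Calca*, the precursor gene of the neuropeptide CGRP, at 41.4 CPM in 12.8%.

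Other signals of the *Gata3*-only cells included bone morphogenetic proteins. *Bmp2*, a ligand that drives bone and cartilage formation, was at 124.7 CPM (110.0 to 141) and found in 34.9% of cells, and *Bmp7*, of the same family, at 47.1 CPM (38.3 to 57.4) and in 30.7%. For comparison, *Bmp2* was at 72.6 CPM (39.7 to 122) in NK-only cells, 56.7 CPM in endothelial cells and 164 CPM in mesenchymal cells of the same library, and its ratio between the subsets did not pass the fold limit. *Il1rl1* was found in 64.5% of the 76 *Gata3*-only cells with *Bmp2* and in 75.4% of the others. These had median depths of 8379.5 and 7205.5 UMIs. The *Bmp2* and *Bmp7* levels include the mixed cells described below. *Csf1*, the macrophage growth factor, was at 60.9 CPM against 20.7 CPM in NK-only cells, a log2 ratio of 1.55 (0.16 to 3.45), with 4 UMIs in NK-only cells. *Tnfsf11*, the osteoclast factor RANKL, was at 61.4 against 10.4 CPM, a log2 ratio of 2.57 (0.68 to 5.63), but NK-only cells held 2 UMIs of it. Over *Cd3*+ cells its log2 ratio in *Gata3*-only cells was -0.21 (-0.48 to 0.05). *Tgfb1* did not pass the fold limit, at 222 against 264 CPM. Of the 28 secreted signals fixed as a list 18 were tested, of which 9 were higher in *Gata3*-only and 6 in NK-only cells, beside 10.4% and 8.03% of all genes.

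**Figure D2:**
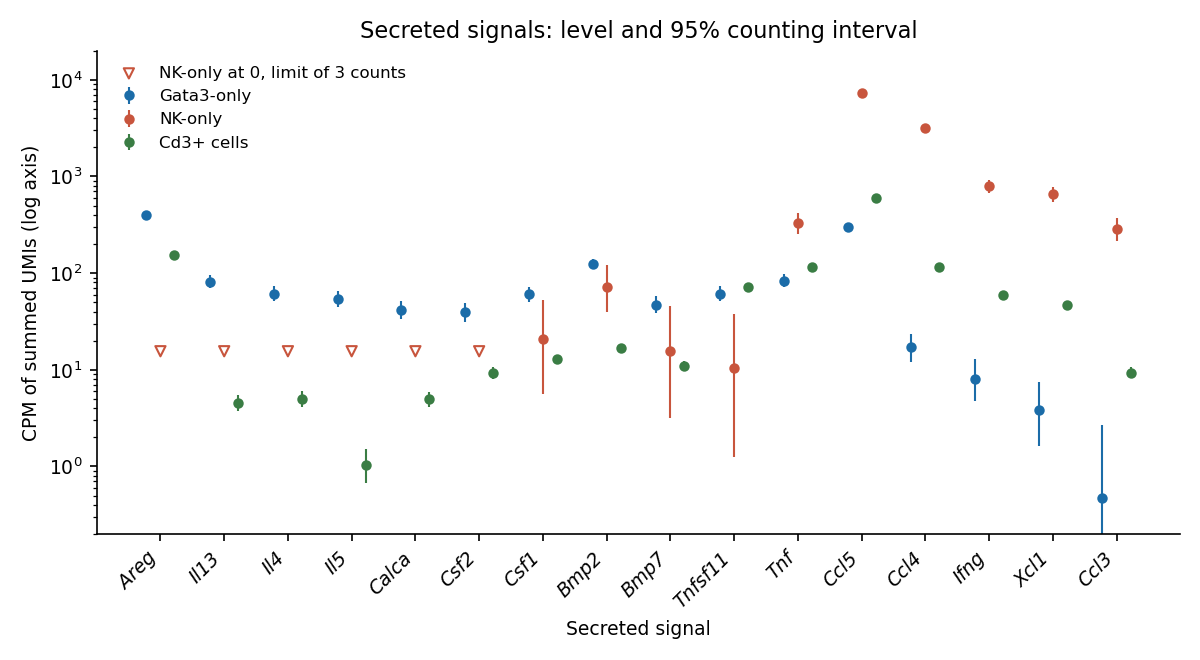
Levels of 16 secreted signals in *Gata3*-only members, NK-only members and *Cd3*+ cells, as CPM of summed UMIs on a log axis with exact Poisson 95% intervals, and with open triangles at 15.5 CPM, the limit of 3 counts, where NK-only cells held 0 UMIs. *Areg*, *Il13*, *Il4*, *Il5*, *Calca* and *Csf2* were at 0 in NK-only cells, and *Ccl5*, *Ccl4*, *Ifng*, *Xcl1* and *Ccl3* were highest there.

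The products of the NK-only cells were chemokines and interferon. *Ccl5*, a T cell chemokine, was at 7246 CPM (6871 to 7636), found in 22 of 24 cells with a median over all 24 of 58 UMIs and at most 223. *Ccl4*, a macrophage chemokine, was at 3193 CPM (2946 to 3455) in 19 cells and *Ccl3*, its relative, at 285 CPM in 10 cells. *Ifng*, interferon gamma, was at 793 CPM (672 to 929) in 15 cells and *Xcl1* at 653 CPM in 18 cells. In *Gata3*-only cells the same 5 genes were at 298, 17.1, 0.476, 8.09 and 3.81 CPM. There, 1 cell held all 17 *Ifng* UMIs and 1 cell all 8 *Xcl1* UMIs, so 217 of 218 cells had no UMI of each.

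Signaling and regulatory genes of NK cells followed the same split. *Tyrobp* was at 715 CPM and found in 22 of 24 NK-only cells, and in 6 of 218 *Gata3*-only cells at 4.76 CPM. *Txk*, a kinase, was at 943 against 75.2 CPM, and *Il12rb2*, a chain of the interleukin 12 receptor, at 498 against 5.24 CPM. *Tbx21*, which encodes the transcription factor T-bet, was at 363 CPM against 7.14 CPM, and its relative *Eomes* at 77.7 CPM in 37.5% of NK-only cells against 0.476 CPM.

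Cytotoxic genes varied in how many NK-only cells held them. *Nkg7*, a granule protein gene, was found in 21 of 24 cells at 461 CPM, *Fasl*, the Fas ligand gene, in 17 at 207 CPM and *Ctsw*, a protease gene, in 16 at 218 CPM. *Prf1*, perforin, was found in 12 of them at 145 CPM and *Gzmb*, granzyme B, in 16.7% at 46.6 CPM. *Gzma*, granzyme A, was at 498 CPM but in 3 of 24 cells, and 67.7% of its UMIs came from 1 cell. *Klrb1b*, a receptor gene beside *Klrb1c* and chosen here after its values were seen, was at 643 CPM in NK-only, 608 CPM in *Gata3* plus NK and 26.2 CPM in *Gata3*-only cells. The killer cell lectin-like receptor genes have closely similar sequences, and how reads that match several of them were counted is uncertain.

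The genes with the most extreme ratios were these. *Dach2*, a transcription cofactor, was at 828 CPM in *Gata3*-only cells, found in 147 of 218 cells, and at 0 UMIs in NK-only cells, at least 53.2-fold higher. *Ctnna2*, a cell adhesion gene, was at 256 CPM but in 30 cells only. *Pde7b*, a cAMP-degrading phosphodiesterase, was at 211 CPM in 45.9% of cells, *Plcl1* at 187 CPM in 49.5% and *Eepd1* at 152 CPM in 43.6%. *Cxcl2*, a neutrophil chemokine, was at 129 CPM in 19.3%. The epidermal genes *Lgals7* and *Perp* were also among the 10 highest, at 592 and 169 CPM, but without the cells of mixed lineage described below they were at 7.88 and 10.7 CPM. Beside the NK genes named above, *Ly6c2*, a surface antigen gene, and *Plek*, a protein kinase C substrate, were among the 10 lowest, at 1.43 against 591 CPM and 3.33 against 332 CPM.

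**Figure D3:**
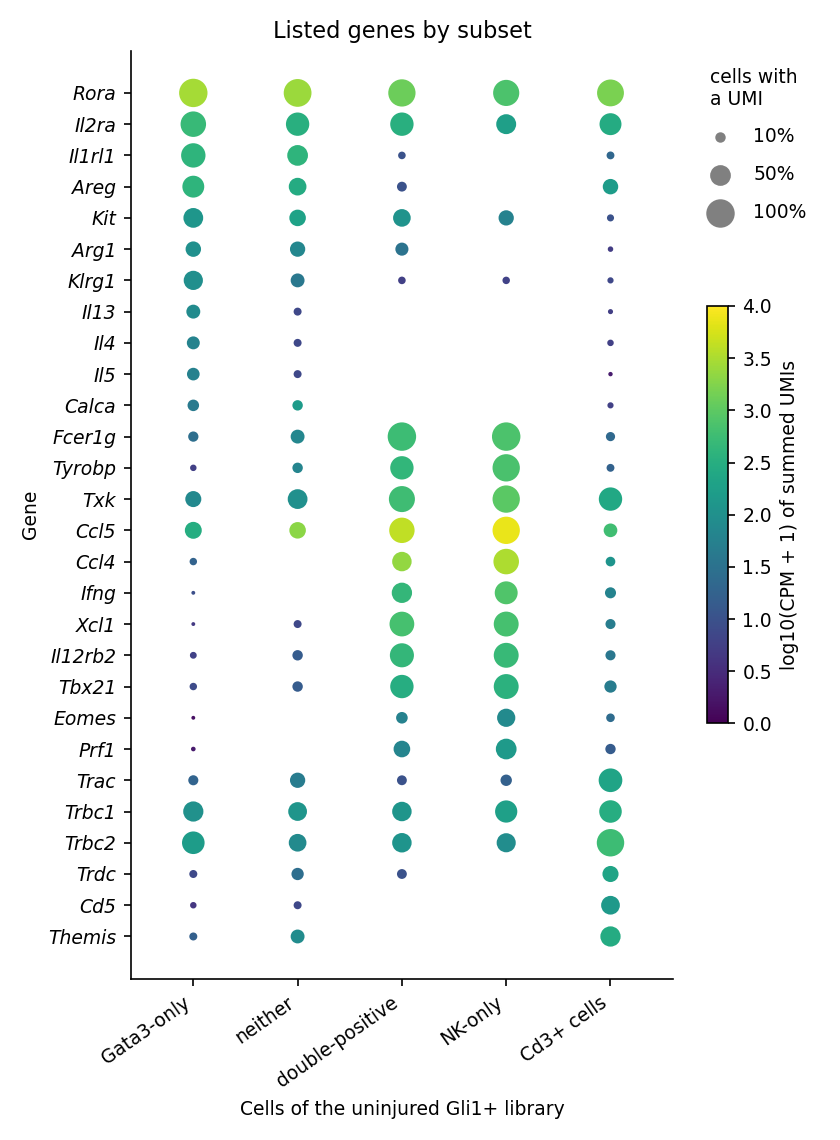
Levels of 28 genes (rows) in the 4 subsets and in *Cd3*+ cells (columns), with color for log10 of CPM plus 1 and dot area for the share of cells with a UMI before thinning. *Rora* to *Calca* have their largest dots in *Gata3*-only cells, *Fcer1g* to *Prf1* in the NK-only and *Gata3* plus NK (double-positive) cells, and *Trac*, *Trdc*, *Cd5* and *Themis* in *Cd3*+ cells.

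Lists for other lymphoid classes were read in the same subsets. *Rora*, the type 2 transcription factor gene, was at 2925 CPM in 99.5% of *Gata3*-only cells and at 746 CPM in NK-only cells. *Inpp4b*, a lipid phosphatase on the list for type 1 innate lymphoid cells, was at 2313 CPM in *Gata3*-only and 311 CPM in NK-only cells, and *Cd200r1*, an inhibitory receptor of the same list, at 66.2 CPM and 0 UMIs. These 2 and *Cxcr6* made 3 of the 4 tested genes of that list higher in *Gata3*-only cells, and *Itga1* was lower. Over all genes, for this list and those that follow, 10.4% were higher and 8.03% lower. Of the type 3 list, *Kit* was higher, at 127 against 57.0 CPM, and 4 tested genes did not pass. *Tox*, *Zbtb16* and *Bcl11b* of the shared innate lymphoid list were higher in *Gata3*-only cells, and *Tcf7* and *Nfil3* in NK-only cells, with 6 of 11 past neither limit. *Pparg*, a nuclear receptor chosen after its values were seen, was at 81.4 CPM in 32.6% of *Gata3*-only cells and at 0 UMIs in NK-only cells.

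Members were then compared with the *Cd3*+ cells over all genes. Of 13014 genes tested between members and *Cd3*+ cells, 1491 were higher in members (11.5%) and 754 lower (5.79%). With TMM scaling the counts were 1237 and 968. TMM moved all log2 ratios by -0.14. Without cells of mixed lineage, described below, in either group they were 805 and 1011, so the balance of higher and lower genes turned. The genes used for the selection were left out of these counts.

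T cell transcripts were not absent from the members. At least 1 UMI of a T cell receptor constant gene was held by 237 of the 285 members (83.2%), against 2461 of 2469 *Cd3*+ cells (99.7%). The *Cd3*+ cells held a median of 9 *Cd3* UMIs, and members had a median depth of 7547 UMIs. The members mainly held the beta chain. *Trbc1* or *Trbc2* was found in 207 members (72.6%), *Trgc1*, *Trgc2* or *Trgc4* in 100 (35.1%), *Trac* in 30 (10.5%) and *Trdc* in 16 (5.61%). Beta without *Trac* was held by 184 members. In *Cd3*+ cells the shares were 96.6% for beta, 49.8% for gamma, 67.1% for *Trac* and 28.2% for *Trdc*.

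The share of *Gata3*-only cells with *Trbc2* stood above that in *Ptprc*-negative endothelial and mesenchymal cells, used as the level of free RNA. Thinned to 2000 UMIs per cell, *Trbc2* was found in 24.3% of members (19.4 to 29.7) and in 12.5% of NK-only cells (2.66 to 32.4). It was found in 25.8% of *Gata3*-only cells, 1.89% of endothelial cells and 0.913% of mesenchymal cells. *Trac* was found in 4.61%, 1.05% and 0%. *Trbc1* and *Trbc2* are near-identical copies, so the division of reads between them is uncertain. *Trgc4* was at 37.6 CPM in *Gata3*-only and 46.8 CPM in *Cd3*+ cells, of 7 constant genes the only one that did not pass the fold limit between members and *Cd3*+ cells. The other 6 were lower in members, beside 5.79% of all genes.

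Other T cell genes were also read in the members. At least 2 UMIs of *Trac*, *Trdc*, *Cd5*, *Cd6*, *Themis*, *Cd8a*, *Cd8b1* and *Trat1* together were held by 26 members (9.12%) and by 88.7% of *Cd3*+ cells, and 228 members (80.0%) held none. By subset this was 19 of 218 *Gata3*-only cells, 1 of 24 NK-only cells, 0 of 23 *Gata3* plus NK cells and 6 of 20 cells with neither marker. Of the 13 genes of T cell signaling 12 were lower in members, beside 5.79% of all genes, and *Cd27* did not pass, at 57.5 against 60.6 CPM. *Cd27*, *Zap70*, *Lat*, *Cd28* and *Lck* were still found in 96, 92, 90, 64 and 63 of the 285 members. *Cd5*, a restraint on receptor signaling, was at 3.004 against 141 CPM and *Cd8b1*, a coreceptor chain, at 0.751 against 57.7 CPM. *Lck*, the kinase that starts T cell receptor signaling, was at 306 CPM in NK-only and 21.9 CPM in *Gata3*-only cells. The 13 genes of T cell signaling summed to 860 CPM in NK-only, 626 CPM in *Gata3* plus NK and 260 CPM in *Gata3*-only cells. Their UMIs were found in 23 of 24, 22 of 23 and 171 of 218 of these cells. Of 6 tested between the subsets *Cd28*, *Cd247* and *Lck* were lower in *Gata3*-only cells, beside 8.03% of all genes. *Ccr7*, a homing receptor of T cells and dendritic cells, was at 691 CPM in cells with neither marker, from 3 of 20 cells, and at 0 to 23.4 CPM in the other subsets.

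**Figure D4:**
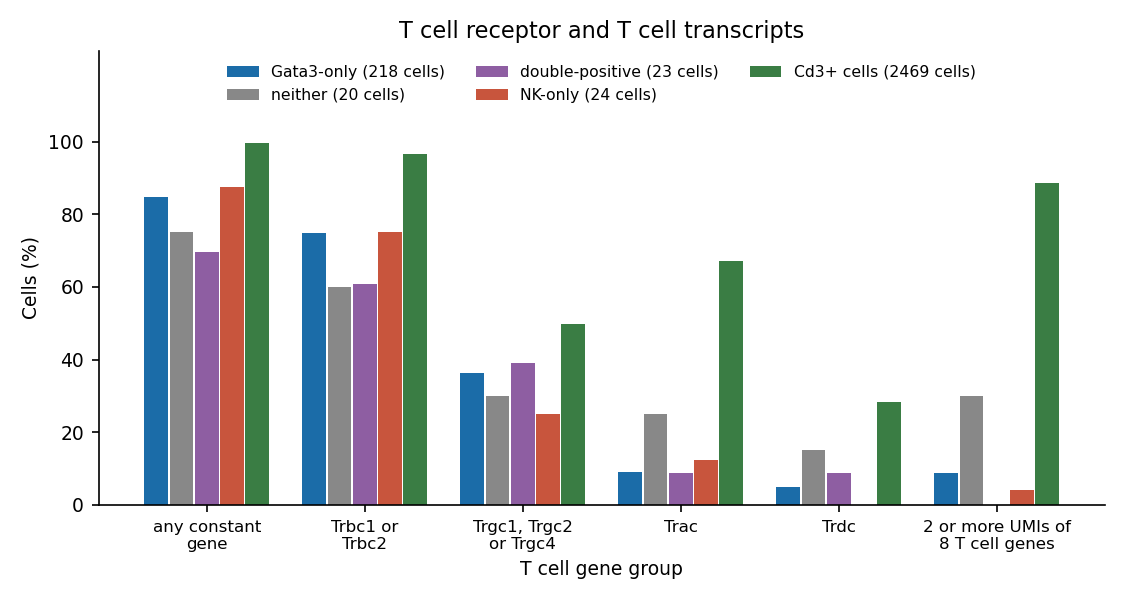
Share of cells with at least 1 UMI of T cell receptor constant genes, and with 2 or more UMIs of 8 T cell genes, in the 4 subsets and in *Cd3*+ cells, before thinning. Beta chain transcripts were found in 60.0 to 75% of each subset, while 2 or more UMIs of the 8 T cell genes were found in 0 to 30.0% of the subsets and 88.7% of *Cd3*+ cells.

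Type 2 transcripts were also present in members without receptor transcripts. The 33 *Gata3*-only cells without any constant gene UMI held *Il1rl1* at 338 CPM, *Areg* at 214 CPM and *Rora* at 2086 CPM. They held *Dach2* at 687 CPM, *Il13* at 46.7 CPM in 3 cells, *Il4* at 2.75 CPM as 1 UMI in 1 cell, against 61.4 CPM in all *Gata3*-only cells, and *Arg1* at 173 CPM, of which 1 cell gave 69.8%. These levels, except that of *Arg1*, were lower than in all *Gata3*-only cells. The 33 cells included cells of mixed lineage, described below, with up to 942 epidermal UMIs in a cell of 36215 UMIs. Such cells add to the UMIs over which levels are counted, and their part in the lower levels was not tested. *Krt14* was at 1415 against 559 CPM, with 50.1% of it from 1 cell.

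Cells just across the *Cd3* limit shared part of the pattern. *Il1rl1* was found in 58.6% of members, in 33.3% of the 72 cells with 1 *Cd3* UMI, in 16.3% of the 80 cells with 2 and in 3.50% of the 2317 cells with 3 or more. *Trac* was found in 10.5, 31.9, 65.0 and 68.2% of them. The limit at 0 *Cd3* UMIs thus cut through a range of cells, and the 72 cells with 1 UMI were 2.92% of the *Cd3*+ cells.

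**Figure D5:**
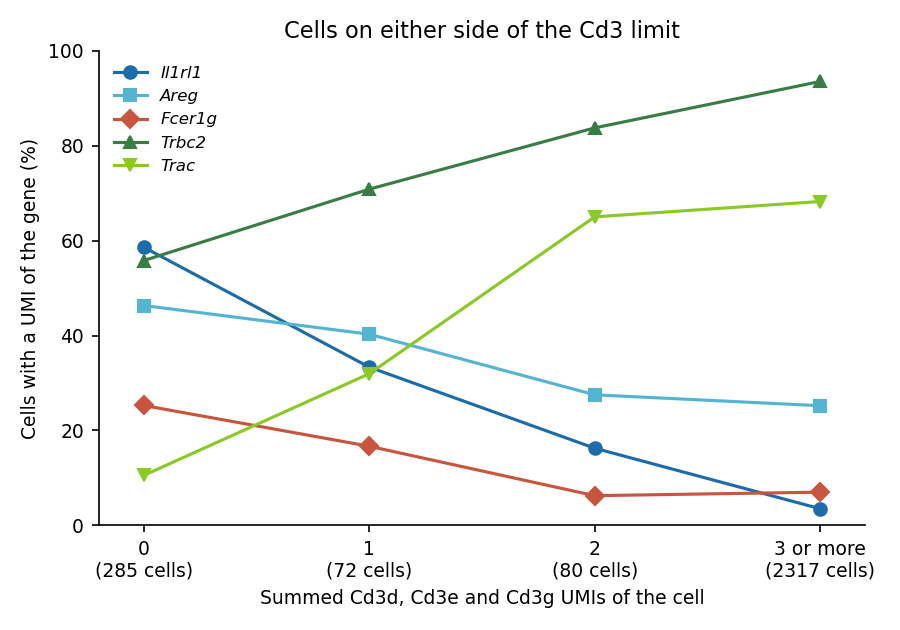
Share of cells with a UMI of 5 genes, before thinning, by the summed *Cd3d*, *Cd3e* and *Cd3g* UMIs of the cell, from the 285 members at 0 to 2317 cells at 3 or more. *Il1rl1* goes from 58.6 to 3.50% and *Trac* from 10.5 to 68.2% along the axis.

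Of the *Cd3*+ cells 1845 of 2469 held 2 or more UMIs of an 11-gene list for T cells that make interleukin 17. All 11 genes of that list were lower in members, beside 5.79% of all genes. *Il17f*, a cytokine gene, was at 0.751 CPM in members and 108 CPM in *Cd3*+ cells, and *Blk*, a kinase gene, at 5.26 against 203 CPM. *Il17a* was at 16.9 against 422 CPM, and within the members it was at 174 CPM in cells with neither marker, from 3 cells, and at 8.57 CPM in *Gata3*-only cells. *Il22* was at 2.63 against 42.9 CPM.

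Type 2 genes were higher in members than in *Cd3*+ cells for 12 of 16 tested, while *Icos* was lower and 3 did not pass. Here the members stood at 285 cells against 2469, and the median log2 ratio of the list was 2.49 against 0.04 over all genes. In *Gata3*-only cells against *Cd3*+ cells, *Il5* was at 53.8 against 1.03 CPM, a log2 ratio of 5.70 (5.07 to 6.39), the highest of the cytokines. The ratio was 4.56 for *Arg1*, 4.34 for *Il1rl1*, 4.16 for *Il13*, 3.62 for *Il4* and 1.37 for *Areg*, which *Cd3*+ cells held at 155 CPM. *Icos*, a costimulatory receptor, was at 265 against 714 CPM. All *Gata3*-only cells were selected for a *Gata3* UMI, which 1160 of the 2469 *Cd3*+ cells held. The ratios of *Gata3*-only over *Cd3*+ cells thus do not part that selection from the lack of *Cd3*. Of the 30 NK genes tested 11 were higher in members, 3 lower and 16 past neither limit, and of 27 secreted signals 16 were higher and 5 lower, beside 11.5% and 5.79% of all genes. *Bmp2* was at 115 CPM in members and 16.7 CPM in *Cd3*+ cells.

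Among the 10 highest ratios of members over *Cd3*+ cells were *Cntn3* at 25.2 against 0.454 CPM and *Ctnna2* at 225 against 5.16 CPM, both genes of cell contact. *Alox5*, which starts leukotriene synthesis, was at 31.9 against 0.908 CPM and *Ptafr*, the receptor for platelet-activating factor, at 19.2 against 0.825 CPM. *Dach2*, *Il5* and *Arg1* were among them too, with *Dmxl2* at 101.02 against 3.63 CPM, *Hs3st1*, a heparan sulfate enzyme, at 68.7 against 3.095 CPM and *Nrgn*, a calmodulin-binding protein gene, at 63.1 against 2.89 CPM. Each of these 10 was found in 10.9 to 55.1% of members. The 10 lowest were the receptor, coreceptor and cytokine genes *Il17f*, *Slamf6*, *Cd8b1*, *Cd8a*, *Cd5*, *Cd6* and *Trat1*, the kinase gene *Blk*, and *Cdh10* at 0.751 against 56.3 CPM and BE692007 at 0.376 against 20.2 CPM.

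Markers of other cells were present in part of the members. Cells with 5 or more epidermal UMIs, 3 or more UMIs of *Cdh5*, *Kdr*, *Emcn* and *Cldn5*, or 10 or more mesenchymal UMIs other than *Dcn* numbered 37 of 285 (13.0%), 31 of them *Gata3*-only, 2 NK-only, 3 *Gata3* plus NK and 1 with neither marker. Among *Cd3*+ cells there were 173 of 2469 (7.01%). Of the 2101183 UMIs of *Gata3*-only cells 1395993 were left without their 31 mixed cells. In NK-only cells 155349 of 192935 UMIs were left without the 2 mixed cells. Levels summed over a subset therefore carry the UMIs of its mixed cells. All 5 keratin genes of the epidermal list were higher in *Gata3*-only than in NK-only cells, at a summed 1744 against 20.7 CPM. However, 182 of 218 *Gata3*-only cells held none of them. Beside this and the list counts that follow, 10.4% of all genes were higher and 8.03% lower in *Gata3*-only cells. Of the 9 mesenchymal genes 5 of 8 tested were lower in *Gata3*-only cells, at 1909 against 9630 CPM for the list, and the range over NK-only cells ran from 0 to 655 UMIs per 10000 with a median of 1.28. Without the mixed cells, *Il1rl1* was at 566 CPM and *Areg* at 522 CPM in *Gata3*-only cells, so both were higher than with them. Of the 6 cell cycle genes 3 were tested and all 3 were higher in *Gata3*-only cells, at 320.3 against 20.7 CPM for the list, but *Mki67*, the proliferation marker, was at 65.7 CPM with and 6.45 CPM without the mixed cells. *Pecam1* and *Cldn5* of the endothelial list were higher in *Gata3*-only than in NK-only cells. *Cldn5* was found in 6 of 218 *Gata3*-only cells, and 1 cell held 43 UMIs of it. None of the 5 skeletal muscle genes reached the minimum for a test between the subsets.

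Most markers of B cells and mast cells were at or near 0. *Ms4a1*, *Jchain* and *Mzb1*, of B and plasma cells, and *Mcpt8*, of basophils, had 0 UMIs in the members, and *Cpa3*, a mast cell protease gene, had 0.376 CPM. *Ighm*, the immunoglobulin M heavy chain gene of the B cell list, was found in 86 members at 42.1 CPM, against 54.8 CPM in *Cd3*+ cells, and was lower in *Gata3*-only than in NK-only cells, at 39.5 against 88.1 CPM. Its part in the results was not tested. *Kit*, which mast cells also express, was at 124.7 CPM. *Fcer1a*, a chain of the IgE receptor, gave 9.99 CPM in 5.05% of *Gata3*-only cells. Of the myeloid list *Cd74*, the invariant chain, was higher in members than in *Cd3*+ cells, at 129.9 against 41.1 CPM, and *Ccr7* was lower, while *Fcgr1* was at 0.

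Immediate early genes, which rise fast when a cell is stimulated, were among the abundant transcripts. Of 13 such genes *Atf3* and *Fos* were higher in members than in *Cd3*+ cells and 11 did not pass, beside 11.5% of all genes higher in that comparison, at a summed 16282 against 10577 CPM. *Fos* was at 2850 CPM in *Gata3*-only, 2115 CPM in NK-only, 1324 CPM in *Cd3*+, 5141 CPM in endothelial and 6572 CPM in mesenchymal cells. Between the subsets 3 of the 13 were higher in *Gata3*-only cells, 1 was lower and 9 passed neither limit, beside 10.4% and 8.03% of all genes, with a median log2 ratio of -0.07. *Fosb* and *Nr4a1* were among the higher ones, at 3425 against 1539 CPM and 1136 against 534 CPM, and *Nr4a2* was lower, at 190.4 against 466 CPM. Their part in the cytokine levels was not tested.

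Genes of tissue residence and egress were also compared. *Cd69*, a residency marker, was at 298 CPM in *Gata3*-only, 275 CPM in NK-only and 434 CPM in *Cd3*+ cells. *S1pr1*, the egress receptor, was at 31.4 and 15.5 CPM. *Cxcr6*, a chemokine receptor of resident lymphocytes, was at 204 against 36.3 CPM.

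The study centers on Gs protein and protein kinase A (PKA) signaling in tendon cells, so an 18-gene list of this route was read in the members. *Gnas*, which encodes the Gs alpha subunit, was at 639.6 CPM in *Gata3*-only, 778 CPM in NK-only and 609 CPM in *Cd3*+ cells, and at 1504 and 1382 CPM in endothelial and mesenchymal cells. *Calcrl*, the receptor for CGRP, was higher in *Gata3*-only cells, at 256 CPM (234 to 278) in 53.7% of cells, than in *Cd3*+ cells at 47.6 CPM, a log2 ratio of 2.42 (2.27 to 2.57). Its partner *Ramp1*, which with *Calcrl* forms the CGRP receptor, was at 114 CPM in 59.2% of *Gata3*-only cells and at 177 CPM in *Cd3*+ cells. *Calcrl* was found in 77 of the 129 *Gata3*-only cells with *Ramp1*. *Ramp3*, another partner of *Calcrl*, was lower in members than in *Cd3*+ cells, *Calcrl* was higher, and 16 of the 18 genes did not pass. Over all genes 11.5% were higher and 5.79% lower in members. Between the subsets *Ramp3* went the other way, at 64.7 CPM in *Gata3*-only cells and 0 UMIs in NK-only cells. There 13 of the 18 genes were tested, of which *Calcrl*, *Ramp3* and *Pde4d*, a cAMP-degrading phosphodiesterase, were higher in *Gata3*-only cells and *Adora2a*, an adenosine receptor gene, was lower, beside 10.4% and 8.03% of all genes. The PKA catalytic subunit genes *Prkaca* and *Prkacb* were at 16.2 and 61.9 CPM in *Gata3*-only cells, against 13.6 and 66.2 CPM in *Cd3*+ cells.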

How the data were processed

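Members and gene lists were chosen with earlier results of these data known. The deposited values are counts, UMIs per gene and cell barcode of single-cell 3' libraries, not normalized and not yet filtered as in the methods. The submitters' processing notes name Cell Ranger 3.1.0, STAR and mm10, but per the file headers the authors ran Cell Ranger 9.0.0, and no coordinates were used.

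Levels are UMIs summed over the cells of a group, per 1000000 UMIs of that group (CPM). Intervals were exact Poisson for levels, exact binomial for shares, and binomial given the sum for log2 ratios. For ranks, calls and list medians 0.5 UMI was added to each sum, but not for the intervals. A gene was tested from 50 UMIs over both groups. Endothelial and mesenchymal cells held at least 2 UMIs of *Cdh5* and *Pecam1* together, or of *Pdgfra*, and no *Ptprc*. Named genes are the leading genes of each list and the 10 highest and 10 lowest ratios among called genes found in at least 10% of the cells of the higher group, without selection, mitochondrial, ribosomal and unnamed genes. Of 224 listed genes 5 were matched by identifier. Doublets were kept; an alternative removed the 452 highest Scrublet scores (scanpy 1.11.5) of 7516 cells, 19 of them members. The TMM alternative used edgeR 4.0.16 (R 4.3.3), for scaling factors only. Calls were also run on simulated Poisson counts, which did not vary between cells beyond counting error. They cannot show how calls fare where 1 cell gives much of a sum.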

Additional observations from a re-analysis of the deposited data

How the results depend on the processing

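Of 128 values recomputed under an alternative no list ratio turned in direction and 92 stayed within the main value's interval or within 1.5 times a count. The balance of higher and lower genes did turn, as given below. These included the values under other depth, mitochondrial, marker and *Cd3* limits, the study's filters, removed doublets and equal weight per cell. The removal of mixed cells and the joined NK-only and *Gata3* plus NK subset were chosen after seeing the data. With no myeloid UMI allowed there were 231 members and 181 *Gata3*-only cells, and the log2 ratios of *Gata3*-only over NK-only cells were 2.81 for the type 2 list and -4.58 for the NK list. With no T cell receptor constant UMI there were 48 members, 33 *Gata3*-only, 3 NK-only, 7 *Gata3* plus NK cells and 5 with neither marker, the list ratios were 2.01 and -5.27, and 104 genes were higher and 128 lower between the subsets, which turned the balance of 623 and 479. Without mixed cells there were 248 members and 187 *Gata3*-only cells, the list ratios were 2.62 and -4.21, 369 genes were higher and 352 lower between the subsets, and 805 higher and 1011 lower in members against *Cd3*+ cells, which turned the balance of 1491 and 754. Subset limits of 2 UMIs left 12 *Gata3* plus NK cells and 48 with neither marker, with an NK list ratio of -4.48. TMM scaling gave an NK list ratio of -4.24, and the joined subset gave 1.87 and -4.09. Without a count minimum 682 genes were higher and 891 lower between the subsets, which also turned the balance, and 2323 higher and 795 lower in members against *Cd3*+ cells. With a minimum of 200 UMIs the counts were 208 higher and 134 lower between the subsets and 646 higher and 483 lower against *Cd3*+ cells, as fewer genes could be tested. Unthinned shares in *Gata3*-only cells were 71.6% for *Il1rl1*, 56.4% for *Areg*, 20.2% for *Il13* and 60.6% for *Trbc2*, and 100% for *Fcer1g* in NK-only cells, against 47.5%, 34.1%, 8.76%, 25.8% and 87.5% thinned. For the others the cause was not tested. No paired analysis was possible because each condition is 1 library. The 24 NK-only cells and their 192935 UMIs limit the comparison between subsets, since a count of 0 there allows up to 15.5 CPM.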
